A study of Mus musculus with 3 samples.

Results

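The genes described here encode the proteins of the cytosolic ribosome, and the measurement is whether accessible chromatin was called at their promoters in dopaminergic neurons (DNs) of the mouse midbrain. Members were all autosomal protein-coding genes of GENCODE M21 whose symbol is Rpl or Rps followed by digits, together with *Rpsa*, *Rplp0*, *Rplp1* and *Rplp2*. Kinases of the *Rps6k* family and *Rps19bp1* were left out. This rule gave 87 genes of 20807 autosomal protein-coding genes. Of these, 43 were named for the large subunit and 30 for the small subunit. A further 7 were paralogs with a symbol and promoter of their own, such as *Rpl3l*. The last 7 were copies whose symbol marks them as retrogenes or pseudogenes, such as *Rps27rt*, but which the annotation lists as protein-coding.

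The peaks came from single-nucleus ATAC-seq of the ventral tegmental area of male C57Bl/6Nl mice, with 1 library at an age of 7 weeks and 1 at 9 weeks. In this assay a transposase cuts open chromatin in isolated nuclei and leaves adaptors for sequencing. Both libraries of DNs entered 1 list of 55326 peaks, each 500 bp wide, which gives positions (mm10) but no height, score or read count. A bulk library of mouse embryonic stem cells (mES cells) in the same series was not analysed here. Because the list is pooled, no value has a spread between replicates, no test was possible from it, and it does not give the depth behind each peak. A gene without a peak is therefore one where none was listed. The paper states that aligned DN reads are also available, and they were not used here. The nuclei were assigned to DNs by the authors from the accessibility of marker genes, *Th* among them, so peaks at those genes are no independent check of the cell type. All 9 DN markers examined, among them *Th*, *Slc6a3*, *Lmx1b* and *Pitx3*, had a promoter peak, while *Olig2*, *Sox10*, *Nanog* and *Pou5f1*, which mark oligodendroglia and pluripotent cells, had none.

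The cytosolic ribosome reads messenger RNA and joins amino acids into protein, and every cell needs it. Each subunit is a frame of ribosomal RNA that carries many different proteins, most of them encoded by a single active gene, while the mouse genome also holds numerous processed copies made by reverse transcription of their abundant messenger RNAs. The active genes are short, are expressed in all tissues, often carry small nucleolar RNA genes (snoRNAs) in their introns, and are known for transcripts that begin with a C and a run of pyrimidines, the 5′ terminal oligopyrimidine tract through which mTOR signalling controls their translation.

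A promoter peak was defined as a peak with its centre within 1 kb of any annotated transcript start of the gene. Of the 87 genes, 77 (88.5%) had at least 1 promoter peak, and the background share of all autosomal protein-coding genes was 59.0%. The exact binomial 95% confidence interval was 79.9 to 94.3% for the ribosomal protein genes and 58.3 to 59.6% for all genes. Such intervals cover counting error only, and neighbouring or related genes are not independent. The genes without a peak were mostly of 1 kind. All 43 large-subunit genes and 29 of 30 small-subunit genes had a promoter peak, and together these were 72 of 73 (98.6%, interval 92.6 to 100%). Of the paralogs, 5 of 7 had one. None of the 7 copies did, which for so few genes allows a share of up to 41.0%.

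At the reference start alone, which is the start of the best supported coding transcript of each gene, 76 ribosomal protein genes (87.4%) had a peak within 1 kb, against a background of 55.0%. The 1 gene lost by this narrower definition was *Rpl3l*, whose only promoter peak lay at an internal start.

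**Figure D1:**
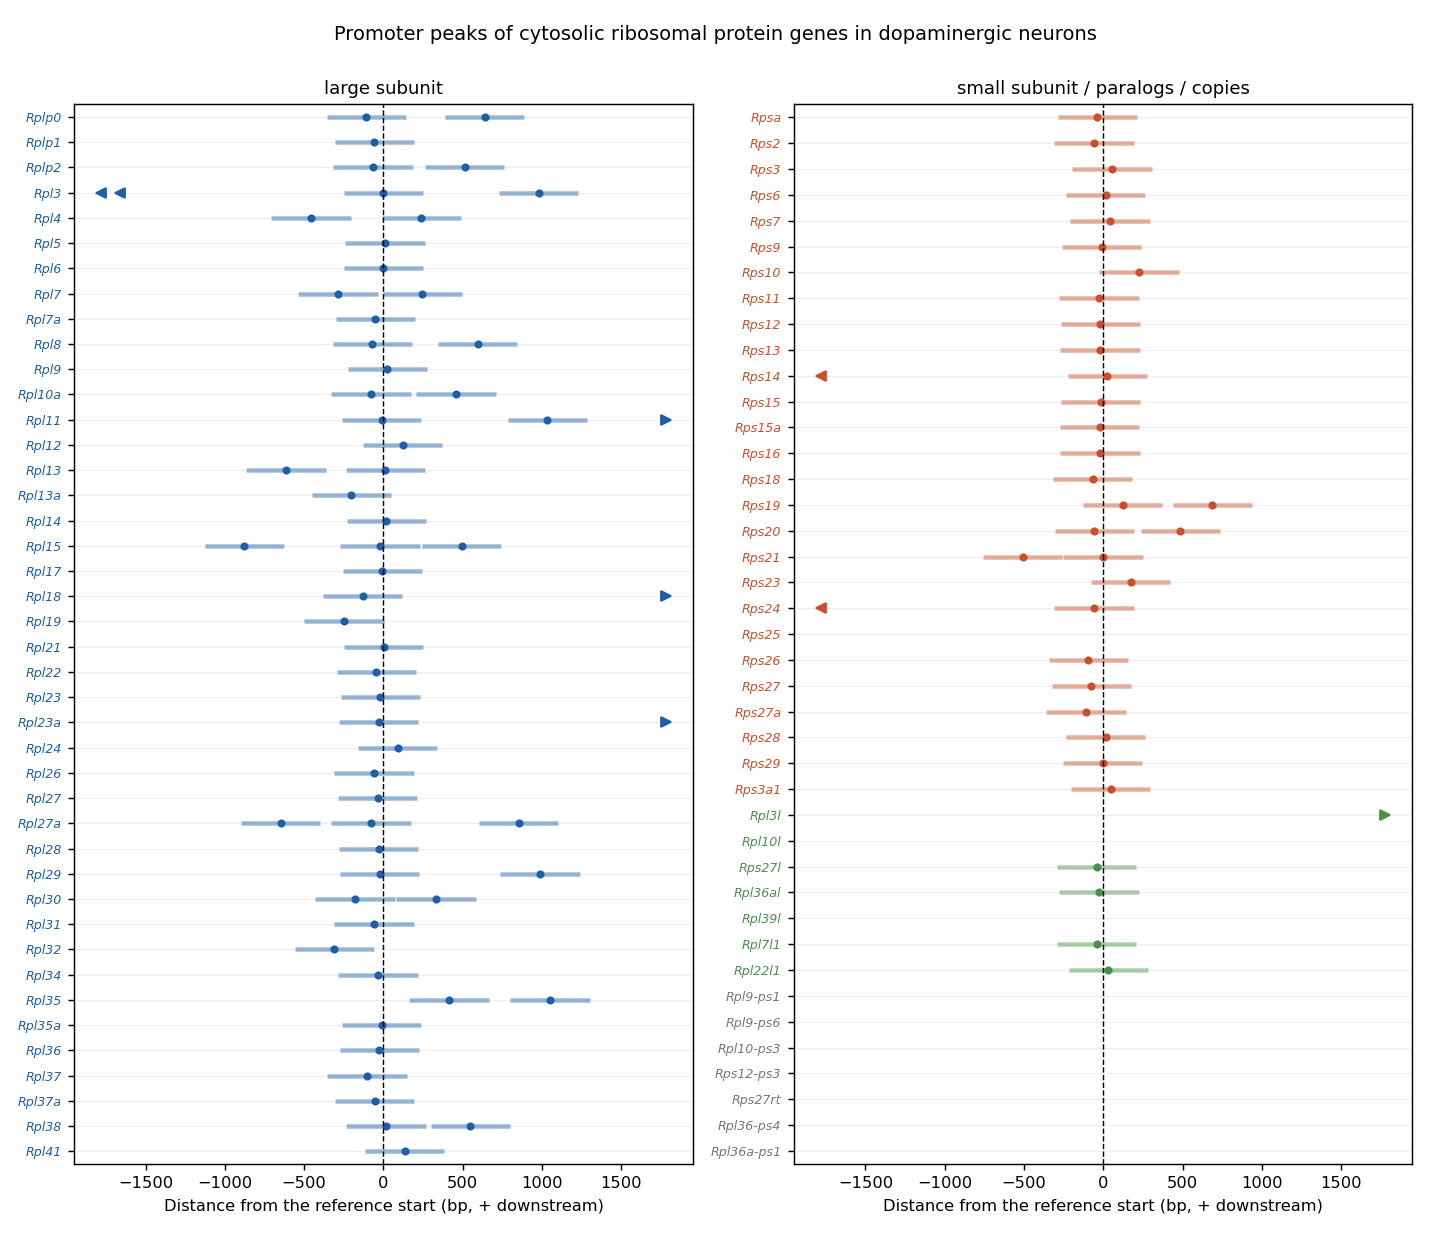
Promoter peaks of 83 of the 87 genes, with the distance from the reference start in bp on the x axis and 1 gene per row. Dots are peak centres, bars the 500 bp of each peak, and arrowheads peaks beyond the axis (their place on the axis has no scale). Large-subunit genes are blue, small-subunit genes red, paralogs green and copies grey. The rows of *Rps25*, *Rpl10l*, *Rpl39l* and the 7 copies are empty.

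The genes with a single promoter peak were the most numerous, at 53 of 87, and 20 had 2 peaks. A further 4 had 3 or more, all of them large-subunit genes. The share with 2 or more was 27.6%, close to the background of 26.1%. It was 41.9% (18 of 43) for large-subunit and 20.0% (6 of 30) for small-subunit genes, a difference without a replicate check. Among genes with a promoter peak the order differed, since 31.2% of the ribosomal protein genes and 44.3% of all genes had 2 or more. These counts depended on the definition. When a peak had to overlap a start, 11 of the 87 genes (12.6%) had 2 or more, against 9.56% of all genes, and the shares were 16.3% (7 of 43) for large-subunit and 13.3% (4 of 30) for small-subunit genes. In total, 106 peaks were promoter peaks of these genes, and each of the 106 belonged to only 1 of them.

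**Figure D2:**
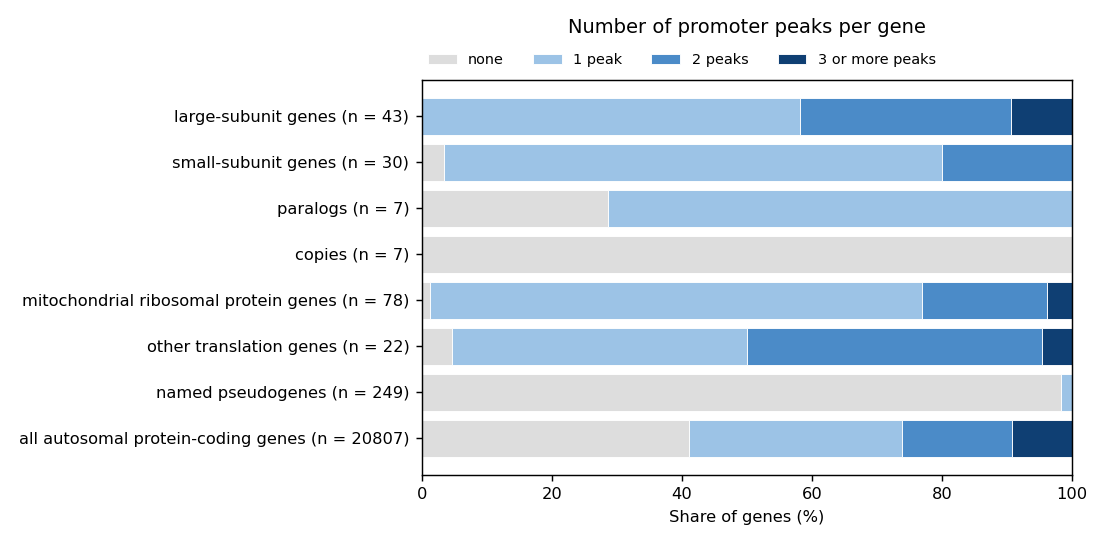
Share of genes (%, x axis) with no, 1, 2, or 3 or more promoter peaks in each list, with the number of genes in each list beside its name. Nearly all subunit genes had a peak, as did mitochondrial ribosomal protein genes and the other translation genes, whereas the copies and the named pseudogenes were almost wholly without one.

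*Rpl3*, which encodes a protein near the peptidyl transferase centre, had the most promoter peaks, with 4. One of them, at chr15:80083157-80083656, was centred exactly on the reference start (0 bp), and another was centred 980 bp downstream of it, 157 bp from another annotated start. The remaining pair was centred at -7914 and -8711 bp, where negative values are upstream, beside the start of 1 longer transcript. A start of the neighbouring gene *Syngr1* lies within 1 kb of a promoter peak of *Rpl3*. *Rpl11*, whose protein binds Mdm2 together with that of *Rpl5* when ribosome assembly is disturbed, had 3 promoter peaks. Their centres were at -11, 1034 and 2710 bp from the reference start, and the last 2 were counted only because further transcripts are annotated as starting inside the gene.

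*Rpl15* and *Rpl27a*, both genes of the large subunit, also had 3 promoter peaks each. In *Rpl15* the centres were at -878, -22 and 494 bp from the reference start. In *Rpl27a* they were at -647, -79 and 852 bp. Both genes therefore had a peak over the start and another on either side of it. The GC content of the flanking peaks of *Rpl27a* was 42.6% upstream and 50.6% downstream, below the 63.6% of the peak at its start.

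The 20 genes with 2 promoter peaks comprised 14 of the large subunit (among them *Rpl4*, *Rpl7*, *Rpl8*, *Rpl10a*, *Rpl13*, *Rpl18*, *Rpl23a*, *Rpl29*, *Rpl30*, *Rpl35*, *Rpl38*, *Rplp0* and *Rplp2*) and 6 of the small subunit (among them *Rps14*, *Rps19*, *Rps20*, *Rps21* and *Rps24*). Over all 24 genes with 2 or more promoter peaks, 13 additional peaks within 1 kb of the reference start lay downstream of the nearest peak. Another 7 lay upstream of it. In the genes with 2 promoter peaks, the pairs were often nearly adjacent. Each listed peak is 500 bp wide, and whether adjacent peaks come from 1 wider accessible region was not tested. In *Rps21* the peaks were at chr2:180256621-180257120 and chr2:180257126-180257625. In *Rps24* the peaks were far apart, with centres at -3701 and -59 bp, the first of them by the start of another transcript, and a start of the neighbouring gene *Polr3a* lies within 1 kb of a promoter peak of *Rps24*. *Rplp0* and *Rplp2*, 2 of the 3 genes of the acidic stalk that recruits elongation factors to the ribosome, had 2 peaks each, at -109 and 638 bp and at -66 and 513 bp, and *Rplp1*, the other, had 1 at -58 bp. *Rpsa*, which encodes a small-subunit protein also described as a laminin receptor, had 1 peak centred at -37 bp (chr9:120127403-120127902), and *Rps27a*, which encodes a fusion of ubiquitin with a ribosomal protein, had 1 at -109 bp.

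The nearest peak usually lay over the reference start. Its centre was at a median of -23 bp (quartiles -60 and 15 bp) in the 77 ribosomal protein genes with a promoter peak, and at -31 bp (quartiles -92 and 37 bp) in all 12266 genes with one. It was upstream of the start in 52 genes, downstream in 24 and on it in 1. Within 100 bp of the reference start it was centred in 58 genes (75.3%), against a background of 57.7% of all genes with a promoter peak. Mitochondrial ribosomal protein genes showed a like concentration, with 81.8% within 100 bp, whereas the share was 57.1% (12 of 21 genes with a peak) in a list of other translation genes, such as *Eef1a1*, close to the background.

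**Figure D3:**
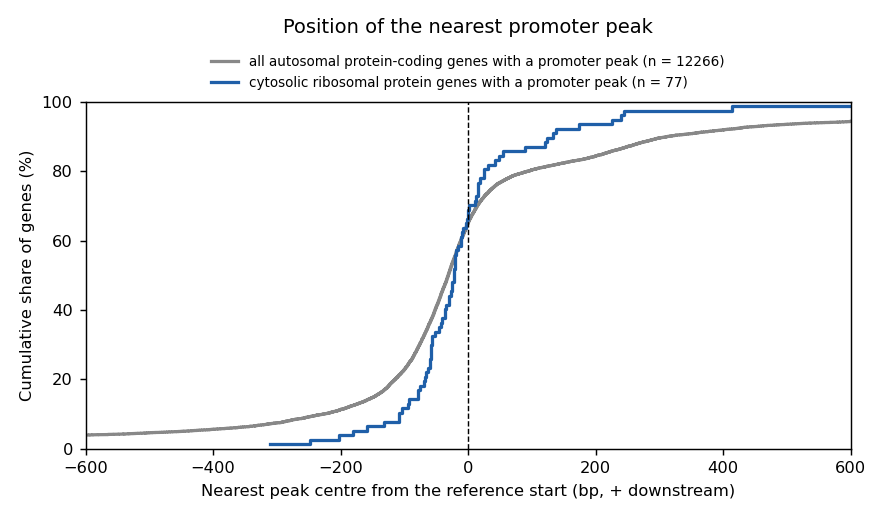
Cumulative share of genes (%, y axis) by the distance of the nearest promoter peak centre from the reference start (bp, x axis), for the 77 ribosomal protein genes and all 12266 genes with a promoter peak. The curve of the ribosomal protein genes rises more steeply around the start, with quartiles of -60 and 15 bp against -92 and 37 bp.

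The 1 peak closest to any annotated start of a gene was also taken instead, and measured from that start. By this measure *Rpl32* was farthest upstream, with the centre of its only promoter peak at -310 bp (chr6:115808808-115809307). This peak also had the lowest GC content of all the nearest peaks, at 42.4%. *Rpl13a* followed at -203 bp. On the downstream side, the closest peak of *Rpl4* was the farthest at 222 bp. Those of *Rps19*, a gene mutated in Diamond-Blackfan anaemia, at 123 bp and *Rps20* at 55 bp followed. The other peak of *Rps20* was nearly as close but upstream, at -56 bp from the nearest start and from the reference start. Further peaks of genes with 2 or more lay farther out, such as one of *Rps14* at 746 bp. Relative to the reference start, *Rpl35* was farther out, with its nearest centre 414 bp downstream, but -88 bp from the nearest start of its own transcripts.

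To show what the starts of these genes look like, sequence is printed for most genes with the pyrimidine tract exactly at the RefSeq transcript start. It runs from 10 bases before to 20 bases from that start (RefSeq, GRCm38.p6, which has the chromosome lengths of mm10). Of the 87 genes, 61 matched an entry of the RefSeq promoter table, and 14 of these 61 (23.0%) began with a C followed by at least 4 pyrimidines, against 2.73% of 15687 genes matched in all. Capitals mark the tract from the first transcribed base. All of these genes had a promoter peak except the last.
Rpl14, chr9:120571507-120571536, plus strand: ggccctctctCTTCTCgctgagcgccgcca
Rpl15, chr14:18270967-18270996, minus strand: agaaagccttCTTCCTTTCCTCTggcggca
Rpl28, chr7:4792955-4792984, plus strand: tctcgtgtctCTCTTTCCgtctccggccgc
Rpl35, chr2:39005112-39005141, minus strand: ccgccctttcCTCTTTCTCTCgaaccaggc
Rpl35a, chr16:33056472-33056501, plus strand: gcttgccttcCTCTTTCCgccatcttggcg
Rps6, chr4:86857348-86857377, minus strand: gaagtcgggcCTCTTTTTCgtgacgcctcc
Rps10, chr17:27635225-27635254, minus strand: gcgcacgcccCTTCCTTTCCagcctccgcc
Rps15a, chr7:118116128-118116157, minus strand: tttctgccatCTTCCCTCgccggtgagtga
Rps18, chr17:33955646-33955675, minus strand: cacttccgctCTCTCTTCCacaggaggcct
Rps27, chr3:90213629-90213658, minus strand: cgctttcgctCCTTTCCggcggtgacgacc
Rps27rt, chr9:114982720-114982749, minus strand: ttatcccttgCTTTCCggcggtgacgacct

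The tract ran for 13 pyrimidines in *Rpl15*, 11 in *Rpl35*, 10 in *Rps10* and 6 in *Rpl14*. Of the genes with the tract that are not printed, *Rpl38* had 8 pyrimidines, and *Rplp2* and *Rps21* had 5 each. How many genes showed it depended on which start was read. At the GENCODE reference start 9 of 87 genes (10.3%) had it, against a background of 2.30%, and at any annotated start 34 genes (39.1%) had it, against 8.69% of all genes. When the tract could begin up to 5 bases to either side of the reference start, 26 genes (29.9%) had it, against 18.4% of all genes and 18.6% of those with a promoter peak. The shares were higher still among these other translation genes, at 13.6% at the reference start, 45.5% at any annotated start and 45.5% within 5 bases, and that list was made of genes known or thought to carry the tract. The first base at the GENCODE reference start was a C in 28 genes, a G in 32, an A in 21 and a T in 6. In *Rps6*, the target of the S6 kinases, the RefSeq start has a tract of 9 pyrimidines and the GENCODE reference start has none.

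*Rps27* and *Rps27rt* are set side by side as a gene with a promoter peak and its copy without one. *Rps27* is a multi-exon gene on chromosome 3, and *Rps27rt* is a retrogene of 374 bp with a single annotated start on chromosome 9. Both are printed from 40 bases before to 20 bases from the start, with the tract in capitals.
Rps27, chr3:90213629-90213688, minus strand: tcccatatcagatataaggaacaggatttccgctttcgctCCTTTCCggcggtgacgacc
Rps27rt, chr9:114982720-114982779, minus strand: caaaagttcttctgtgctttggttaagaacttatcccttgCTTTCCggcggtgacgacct

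Aligned without gaps, 37 of 40 bases (92.5%) were identical from the fourth transcribed base of *Rps27* onwards. Upstream of the start, 42 of 200 bases (21.0%) were identical. Over the bases compared, and without gaps, the copy thus largely matched the transcribed sequence of the parent but not its upstream sequence. *Rps27* had a promoter peak centred at -76 bp (chr3:90213478-90213977), whereas the peak nearest to *Rps27rt* was centred 3712 bp downstream of its start.

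None of the other copies had a peak close by. The nearest peak centre was 3.76 kb from the start of *Rpl9-ps6*, 10.6 kb from that of *Rps12-ps3*, 11.3 kb from *Rpl10-ps3* and 28.2 kb from *Rpl36-ps4*. It was 51.4 kb away for *Rpl36a-ps1* and 93.8 kb away for *Rpl9-ps1*. All 7 copies were short, at 374 to 768 bp, with a median of 494 bp against 3368 bp for the subunit genes. Outside the protein-coding set, the annotation names 249 autosomal pseudogenes of ribosomal protein genes, and 4 of them (1.61%, interval 0.439 to 4.06%) had a promoter peak. In those 4 the nearest peak centre was at -123, -242, -527 and -765 bp, and the peak of *Rpl29-ps2*, the one at -123 bp, also lay by a start of the gene *Akr1e1*.

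Sequence that occurs more than once can hold fewer assignable reads, so uniqueness was measured for each gene as the share of 50-base words within 500 bp of the reference start that occur once in the genome. The median was 64.1% for the copies, 82.1% for the named pseudogenes and 100% for the subunit genes. The shortfall of the copies was on the transcribed side, with a median of 26.3% downstream of the start and 100% upstream. The values were 51.3% for *Rpl10-ps3*, 51.3% for *Rps12-ps3*, 59.0% for *Rpl9-ps6*, 64.1% for *Rps27rt* and 66.7% for *Rpl36a-ps1*. *Rpl9-ps1* and *Rpl36-ps4* were at 97.4% each and also lacked a peak. Conversely, *Rps29*, a small-subunit gene with a share of 64.1%, had a promoter peak centred at -4 bp (chr12:69158941-69159440), as did *Rpl24* at 76.9% and *Rpl37a* at 82.1%. The part of repeated sequence in the missing peaks was not tested.

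**Figure D4:**
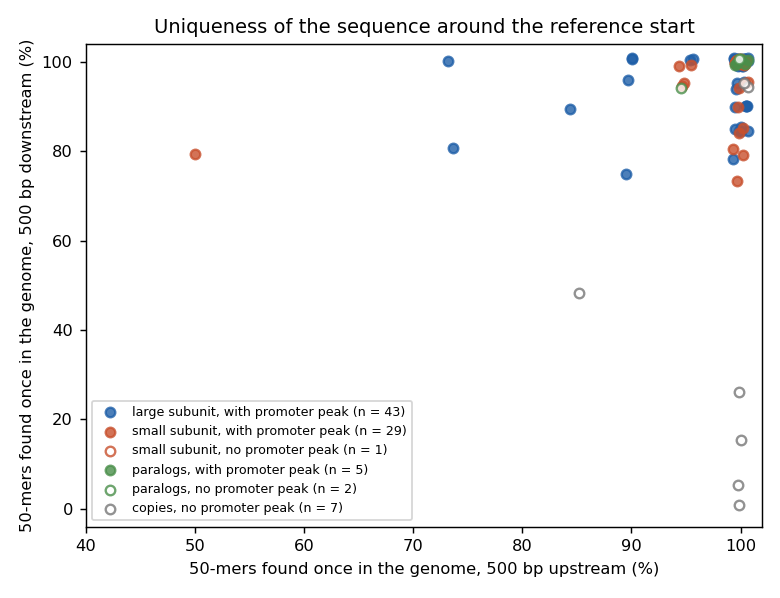
Share of 50-base words found once in the genome, in the 500 bp upstream (x axis) and the 500 bp downstream (y axis) of the reference start, in %, for each of the 87 genes. Filled points had a promoter peak and open points had none, and points were moved by at most 1 percentage point so that they can be seen. Of the 7 copies, 5 lie below 50% downstream, but 2 copies, both paralogs without a promoter peak and *Rps25* lie above 90%, as do most genes with a peak.

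Among the paralogs, *Rpl7l1*, *Rpl22l1*, *Rpl36al* and *Rps27l* each had 1 peak at the reference start. Their centres lay at -41 bp, 31 bp, -27 bp and -42 bp in that order. All 4 were therefore as close to the start as in the parent genes *Rpl22* (-46 bp) and *Rps27* (-76 bp). The parent *Rpl7* had 2 peaks, at -286 and 245 bp, on either side of its reference start. *Rpl10l* and *Rpl39l*, both known for expression in the testis, had no promoter peak, and the nearest peak centres were 186.3 kb and 22.6 kb away. Their sequence was unique at 94.9% and 100%. *Rpl3l*, which replaces *Rpl3* in heart and skeletal muscle, had no peak within 1 kb of its reference start. Its only promoter peak, at chr17:24732279-24732778, was centred 4708 bp downstream, by the start of an internal transcript, and its CpG ratio (observed over expected CpG dinucleotides) was 0.165, far below the median of 0.896 for these genes. The parents *Rpl10*, *Rpl36a* and *Rpl39* are on the X chromosome and were left out by the rule, and each had 2 promoter peaks. The remaining X-linked gene, *Rps4x*, had 1.

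*Rps25* was the only subunit gene without a promoter peak. It encodes a small-subunit protein that some viral internal ribosome entry sites need. The gene spans chr9:44407139-44410427 on the plus strand and has 7 annotated starts, and the nearest peak, at chr9:44417810-44418309, was centred 10920 bp downstream of its reference start. *Trappc4*, a divergent gene with an annotated start 33 bp from the reference start of *Rps25*, had no promoter peak either. Around the reference start, *Rps25* had a GC content of 63.3%, a CpG ratio of 0.818 and 100% unique sequence, against medians of 56.0% and 0.856 and 100% for all subunit genes. Its RefSeq start is shown because it is the exception, from 25 bases before to 5 bases from the RefSeq start, with no part in capitals, followed by the ETS-type sequence upstream, in capitals, which begins at position -73 counted from 0 at the RefSeq start. This RefSeq start, at position 44407714, lies downstream of the reference start at 44407139, so both stretches are outside the window that the GC content and CpG ratio describe, and that window holds no ETS-type sequence.
Rps25, chr9:44407689-44407718, plus strand: gggcttcctttttttccgacatcttagcga
Rps25, chr9:44407630-44407659, plus strand: cacccattgccCCGGAAGtactctctcgag

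The protein-coding lists most like the subunit genes also had a promoter peak in nearly every gene. Of the mitochondrial ribosomal protein genes (*Mrpl* and *Mrps*), which encode the separate ribosome of mitochondria, 77 of 78 (98.7%, interval 93.1 to 100%) had a promoter peak, and the exception was *Mrpl43*. Of 22 other genes of translation whose transcripts are known or thought to carry a pyrimidine tract, such as *Eef1a1*, *Pabpc1* and *Tpt1*, 21 (95.5%, interval 77.2 to 99.9%) had one, and the exception was *Eef2*, the elongation factor that moves the ribosome along the messenger RNA. The intervals of these lists overlap that of the subunit genes (92.6 to 100%). Genes with 2 or more promoter peaks made up 23.1% of the mitochondrial list and 50.0% of the other translation genes.

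Promoters were also compared by base composition, since CpG-rich promoters are often accessible. A promoter was called CpG-rich when the sequence from 250 bases before to 50 bases from the reference start had a GC content of at least 55% and a CpG ratio of at least 0.6. By this definition 42 of the 87 genes had a CpG-rich promoter, and 41 of them had a promoter peak (97.6%), against a background of 89.2% of all CpG-rich genes. Of the other 45 genes, 36 (80.0%, interval 65.4 to 90.4%) had a peak, against 38.1% (interval 37.3 to 39.0%) of all genes without a CpG-rich promoter. Among subunit genes alone, 34 of 34 without a CpG-rich promoter had one. Thus a promoter peak was listed in subunit genes on both sides of this threshold, and the only subunit gene without one, *Rps25*, was CpG-rich.

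The nearest peaks of the ribosomal protein genes had a lower GC content than those of all genes, with medians of 60.0% (quartiles 55.0 and 63.2%) and 63.4% (quartiles 58.2 and 68.4%). Their CpG ratio was higher, at a median of 0.896 against 0.801. The lists like them had medians of 59.2% and 0.817 in mitochondrial ribosomal protein genes and of 63.2% and 0.909 in the other translation genes. GC content ranged from 42.4% in *Rpl32* and 43.0% in *Rps26* to 71.6% in *Rps10*.

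Short sequences known to bind transcription factors were counted in the same window of 300 bases, on both strands, in words without mismatches. The ETS-type sequence CCGGAAG was in 26 of 87 promoters (29.9%), against 11.4% of all promoters and 17.1% of those of genes with a promoter peak. It was in 37.2% of the promoters of mitochondrial ribosomal protein genes. The palindrome CTCGCGAG was in 9 promoters (10.3%), against 1.18% of all promoters and 1.88% of those of genes with a peak, and in 3.85% of those of the mitochondrial list. AAGATGG, a YY1-type sequence, was in 11.5%, against 6.36% of all promoters and 7.07% of those of genes with a peak, but 17.9% of the mitochondrial list and 22.7% of the other translation genes. The E-box CACGTG was in 11.5%, against 7.78% and 9.73%, and the NRF1-type sequence CGCATGCG in 2.30%, against 2.39% and 3.73%. The GC box GGGCGG was in 47.1%, close to the 46.2% of all promoters but below the 63.9% of genes with a peak and the 80.1% of CpG-rich promoters. CCAAT, which NF-Y binds, was in 28.7%, against 38.2% and 37.9%. TATAAA, searched on the sense strand from 40 to 20 bases before the start, was in 0 of 87 promoters, in 2.40% of all and in 0.872% of those of genes with a peak. A match of letters is not evidence of binding, and these words can overlap the sequences of CpG-rich promoters in general.

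**Figure D5:**
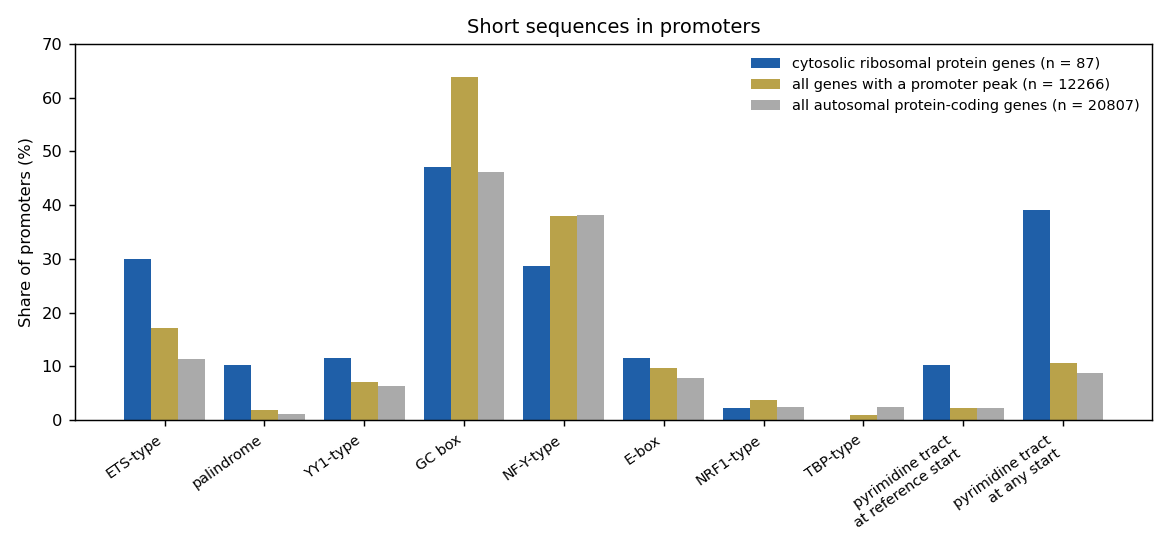
Share of promoters (%, y axis) that hold each short sequence, for the 87 ribosomal protein genes, the 12266 genes with a promoter peak and all 20807 autosomal protein-coding genes. NF-Y-type is CCAAT and TBP-type is TATAAA. The bars of the ribosomal protein genes stand highest above both others for the ETS-type sequence, the palindrome CTCGCGAG and the pyrimidine tract at any start.

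The palindrome is shown with its surroundings in the genes that have it in both annotations because its share had the highest ratio to that of all promoters among the sequences searched. Capitals mark the palindrome, and all windows are 30 bases long.
Rpl10a, chr17:28328524-28328553, plus strand: aacgggcaactCTCGCGAGaacgcgggctc
Rpl26, chr11:68901530-68901559, plus strand: gctccgagactCTCGCGAGatctcgcggca
Rpl27a, chr7:109519162-109519191, plus strand: gcgcctgctacCTCGCGAGacttcgtgagc
Rps6, chr4:86857399-86857428, minus strand: cgccggctgttCTCGCGAGaacttagagcg
Rps28, chr17:33824544-33824573, minus strand: ccgcgtgcggtCTCGCGAGagcgaaagtga

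In these genes the palindrome began at -30, -25, -22, -50 and 0 bases from the RefSeq start in the order printed. Of the genes printed, *Rps6*, *Rpl26* and *Rpl27a* also had the ETS-type sequence in the reference promoter. As an example, the promoter of *Rps6* is given from 200 to 16 bases before the RefSeq start, with the ETS-type sequence and the palindrome in capitals in that order.
Rps6, chr4:86857383-86857567, minus strand: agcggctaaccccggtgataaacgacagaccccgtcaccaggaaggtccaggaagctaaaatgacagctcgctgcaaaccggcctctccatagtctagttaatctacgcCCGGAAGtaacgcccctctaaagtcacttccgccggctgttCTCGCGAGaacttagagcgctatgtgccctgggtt

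The whole of this stretch lies in the only promoter peak of *Rps6*, at chr4:86857148-86857647. Upstream of the RefSeq start, *Rps18*, *Rps21*, *Rpl15* and *Rpl39l*, which had no promoter peak, held the ETS-type sequence more than once. It is shown in capitals for the small-subunit genes among them, at -157 and -75 bases in *Rps18* and at -88 and -26 bases in *Rps21*.
Rps18, chr17:33955804-33955833, minus strand: agaaggccgaaCCGGAAGttatagctccgg
Rps18, chr17:33955722-33955751, minus strand: agaagcaatttCCGGAAGtggacctccggg
Rps21, chr2:180257280-180257309, plus strand: ctttctttgcaCCGGAAGcggaagttaaaa
Rps21, chr2:180257342-180257371, plus strand: agtaccctgacCCGGAAGcacttaccgagg

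A peak at a shared promoter cannot be given to 1 of the genes there. In 18 of the 77 genes with a promoter peak (23.4%), a start of another protein-coding gene lay within 1 kb of the centre of a promoter peak, close to the background of 21.6%. For the mitochondrial list this share was 42.9%. A protein-coding gene on the opposite strand with a start at most 1 kb upstream was present for 12 of the 87 genes (13.8%), against 9.36% of all genes and 14.6% of those with a promoter peak. It was present for 32.1% of the mitochondrial list and 22.7% of the other translation genes. The closest was *Ndufa7*, a subunit gene of respiratory complex I, 10 bp from *Rps28*. A single peak at chr17:33824298-33824797 covered both starts, with its centre 15 bp downstream of the start of *Rps28*. The sequence is given from 38 bases before to 20 bases from the start of *Rps28*, with the palindrome in capitals.
Rps28, chr17:33824543-33824600, minus strand: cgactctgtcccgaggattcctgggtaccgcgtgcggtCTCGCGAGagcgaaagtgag

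After *Rps25* and *Trappc4*, which had no peak, the next closest were *Rps27* with *Rab13* at 44 bp, *Rpl9* with *Lias* at 53 bp and *Rpl15* with *Nkiras1* at 69 bp. Each of these 3 pairs had a promoter peak within 1 kb of the start of both genes. For *Rps10* the other gene was a readthrough transcript of *Rps10* itself, annotated as RPS10-NUDT3.

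The genes were short and held few other peaks. The median length was 3232 bp, against 17629 bp for all genes. A peak inside the gene that was not a promoter peak was present in 11 genes (12.6%), against a background of 34.1%, and there were 17 such peaks in all. *Rps14* had 3 of them and *Rpl11* had 2. The surroundings were not poor in peaks, with a median of 7 peaks within 50 kb of a gene against 5 for all genes and 7 for all genes with a promoter peak. *Rps15* had the most, with 47, followed by *Rpl22* with 33, whereas *Rpl10l*, *Rpl36a-ps1* and *Rpl9-ps1* had 0.

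SnoRNA genes, whose products guide the chemical modification of ribosomal RNA, lay inside 28 of the 87 genes (32.2%), against 1.26% of all genes, and numbered 56 in total. Of the other translation genes 6 of 22 (27.3%) held one as well, and of the mitochondrial ribosomal protein genes 0 of 78. All 28 hosts were subunit genes with a promoter peak. *Rpl4* held 5 and *Rpl13a* held 4. From the reference start, the single peak of *Rpl13a* was centred at -203 bp and the peaks of *Rpl4* at -456 and 240 bp.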

How the data were processed

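Peaks were called by the authors from snATAC-seq of 2 midbrain libraries, 1 of each age. Reads were mapped to mm10, and Cell Ranger and ArchR are named in the submitters' processing notes. Nuclei of the DN cluster of both libraries were pooled into pseudobulk replicates, and overlapping peaks were merged iteratively. The deposited list holds peak positions only. The paper also describes a filter on the share of nuclei with a peak, and whether it was applied to the list is not given in the sources used here.

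List positions were taken as 0-based and are printed 1-based. Peaks were assigned to GENCODE M21 transcript starts by their centres (1 kb). The reference start was that of the APPRIS principal transcript, then of the best support level, then of the longest. Uniqueness used 50-mers every 25 bp on both strands. Assignment was tested on simulated peaks placed at known distances. The software was Python 3.11.15, scipy 1.17.1, numpy 2.4.6, matplotlib 3.10.9 and pandas 2.3.3.

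The members, lists and sequences searched were chosen with earlier results of these data known, and the definition of a CpG-rich promoter was chosen after the data were seen. Genes named were those without a promoter peak or with 3 or more, the 3 with the farthest peaks on each side, stalk proteins, *Rpsa*, *Rps27a*, the paralogs with their parents, the 5 with the nearest divergent gene, the 3 with most snoRNAs and the 5 with the least unique promoters. Other genes named were chosen after their values were seen. Some single genes that this rule or a list would name are not reported here, and they stay in all counts. No p-value was computed, since genes of 1 pooled list are not replicates. Alternatives changed the distance, the starts, the assignment of shared peaks, the origin of positions, the members and the length and place of the tract.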

Additional observations from a re-analysis of the deposited data

How the results depend on the processing

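No paired analysis was possible because both DN libraries are pooled in the 1 list used here, and no library could be left out of it. Over 6 results, 32 alternatives were computed, and in 26 of them counts stayed within 1.5 times the reported value and median distances within its 95% interval (-42 to -21 bp around -28.5 bp, measured to the nearest start over all 106 promoter peaks). The number of genes with a promoter peak was 75 to 77 in the alternatives that kept all 87 genes. Without paralogs and copies it was 72 of 73. The number with 2 or more fell from 24 to 11 when a peak had to overlap a start. The count with a pyrimidine tract moved most, from 9 to 26 when the tract could begin up to 5 bases to either side, to 5 when 6 pyrimidines had to follow the C, to 34 at any annotated start and to 14 of 61 at RefSeq starts, an alternative chosen after seeing the data. Genes whose peak lay by another gene numbered 41 instead of 18 when genes of any type counted. The list has no depth per peak, so genes without a peak may have accessibility below what was called.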
